A study of Neurospora crassa with 8 samples.

Results

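The velvet genes of Neurospora crassa, ve-1 (NCU01731), vel-2 (NCU02775), vos-1 (NCU05964) and lae-1 (NCU00646), were followed through 7 RNA-seq libraries of mycelia. The 4 genes were chosen by name, and they are 4 of the 9733 genes counted in the series. The RefSeq annotation of NC12 carries a symbol for ve-1, while the other 3 members are listed there by locus number only.

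Velvet proteins are fungal regulators that couple light to development and to secondary metabolism. In Aspergillus nidulans, where the complex is best known, VeA enters the nucleus mainly in darkness, joins VelB, and meets there LaeA, a protein with a methyltransferase domain. VelB also pairs with VosA, which is known in that species for its role in the maturation and survival of spores. The Neurospora members described here are named after these proteins: ve-1 after VeA, vel-2 after VelB, vos-1 after VosA and lae-1 after LaeA.

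The study catalogued coding and noncoding transcripts of Neurospora. A strand-specific series used wt (74-OR23-1VA), grown as mycelial discs in shaken liquid culture at 25 °C. The discs had spent 24 h in darkness after growth in light, and were harvested after 0 (dark), 30, 60 or 120 min of renewed light. A second set came from constant light for 48 h and held 1 library each of strains carrying Δwc1::hyg and Δwc2::hyg and of wt. The wc-1 and wc-2 genes encode the photoreceptor and its partner in the White Collar Complex, the blue light transcription factor of Neurospora. Every condition had 1 library, and an eighth sample, a list of lincRNA genes with pooled polysome values, holds none of the 4 genes and was not used here.

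The sense reads on genes numbered 9804779 in the dark library, 16587716 after 30 min, 21422091 after 60 min and 9725970 after 120 min. The reads summed over exons numbered 22445139 in the library labelled Δwc1, 22215526 in the library labelled Δwc2 and 26210537 in wt, and 2 genes, NCU09345 and NCU06110, took 18.9%, 20.5% and 25.7% of them. The light-responsive genes vvd and frq, which encode a blue light receptor that damps the response and a clock protein, followed the labels of the light times, with 113-fold and 4.58-fold more reads at 30 min than in the dark. The deletion labels were checked on the targeted genes. In the library labelled Δwc1, exon line 1 of wc-1 held 3 reads, against 63 in the library labelled Δwc2 and 88 in wt, but exon line 2 held 1287 reads, against 189 and 244. All of wc-1 therefore had 4.54-fold more reads in the library labelled Δwc1 than in wt, which goes against that label for the gene as a whole. In the library labelled Δwc2, exon line 2 of wc-2 held 3 reads, against 320 in the library labelled Δwc1 and 303 in wt. The other lines of wc-2 still held reads in that library, with 53 against 230 in wt on line 1, 54 against 70 on line 3 and 31 against 2 on line 4, where the ratio to wt was 18.3 (4.65 to 158). Both libraries held fewer vvd reads, 384 (labelled Δwc1) and 136 (labelled Δwc2), against 12684 in wt.

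With 1 library per condition there is no replicate check and no p-value. Each ratio below is given with an exact (Clopper-Pearson) 95% interval, which compares 2 libraries and not 2 conditions and covers counting error only. Counts of the light times were scaled by the total reads of each library, counts of constant light by the summed exon reads. In a culture, fewer cells of one type and less RNA per cell cannot be told apart.

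Among the velvet genes, vos-1 had the largest difference between the light and the dark libraries. It had 238 sense reads in the dark, 1619 after 30 min, 1100 after 60 min and 345 after 120 min, which corresponds to 19.4, 79.4, 44.4 and 28.5 RPM (reads per 1000000 reads of the library). Its level was thus highest at 30 min and lower at each later time, while it was still above the dark library at 120 min. The ratio to the dark library was 4.10 after 30 min (95% interval 3.58 to 4.72), 2.30 after 60 min (1.99 to 2.65) and 1.47 after 120 min (1.24 to 1.74). Among the 6820 genes with at least 100 reads in the dark or at 30 min, 129 had a larger ratio at 30 min. From 30 to 60 min the ratio was 0.560 (0.518 to 0.605), and from 60 to 120 min it was 0.641 (0.566 to 0.724). All comparisons with the dark share that 1 library.

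For ve-1, which encodes the counterpart of VeA, the sense reads were 1398 in the dark, 1907 after 30 min, 2513 after 60 min and 1585 after 120 min, or 114, 93.5, 102 and 131 RPM. The gene was lowest at 30 min and highest at 120 min, within a narrow range. Its ratio to the dark library was 0.822 after 30 min (0.767 to 0.881), 0.893 after 60 min (0.836 to 0.954) and 1.15 after 120 min (1.07 to 1.24).

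A similar course was measured for vel-2, the counterpart of VelB. It had 730 sense reads in the dark, 862 after 30 min, 1325 after 60 min and 796 after 120 min, which is 59.4, 42.3, 53.5 and 65.7 RPM. The dip at 30 min was deeper than that of ve-1, with a ratio to the dark library of 0.712 (0.644 to 0.786). At 60 min the ratio was 0.901 (0.823 to 0.988), and at 120 min it was 1.11 (1.00 to 1.23), an interval that just held 1.

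The least abundant member was lae-1, named after the methyltransferase-like LaeA. It had 103 sense reads in the dark, 113 after 30 min, 117 after 60 min and 130 after 120 min, or 8.38, 5.54, 4.73 and 10.7 RPM. Its lowest level fell at 60 min, later than that of ve-1 and vel-2, and its highest at 120 min. The ratio to the dark library was 0.661 after 30 min (0.502 to 0.872) and 0.564 after 60 min (0.429 to 0.742), and after 120 min it was 1.28, with an interval that held 1 (0.981 to 1.68). From 60 to 120 min lae-1 had a ratio of 2.27 (1.76 to 2.94), and 95 of the 6988 genes with at least 100 reads in either library had a larger one.

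**Figure D1:**
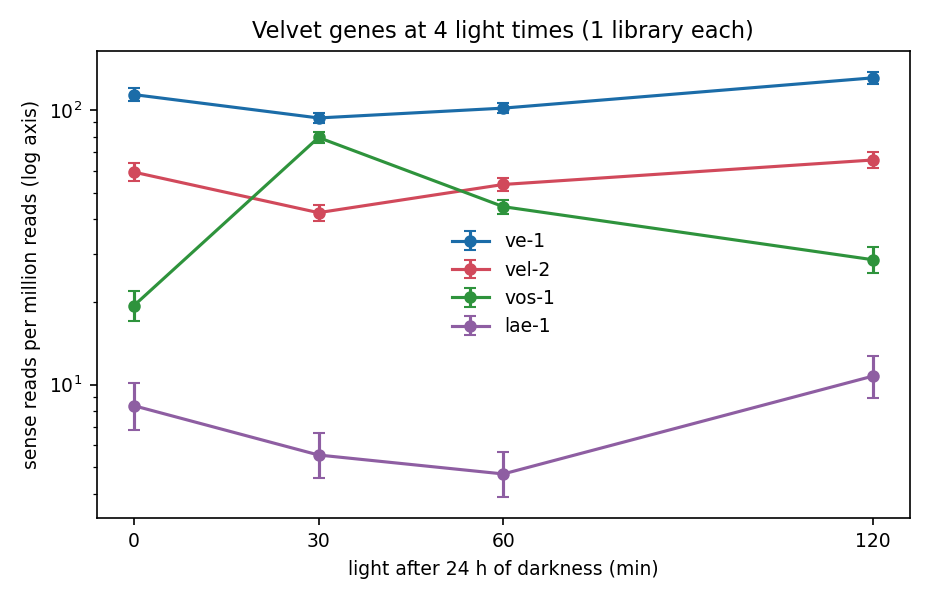
Sense RPM (log axis) of the 4 velvet genes against the time in light in min, 1 library per time, with 95% counting intervals as bars. The vos-1 line peaks at 30 min with 79.4 RPM, where ve-1 (93.5) and vel-2 (42.3) are lowest, while lae-1 is lowest at 60 min with 4.73.

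Counted by the 2-fold rule of the study, with at least 10 reads in the higher library, 1 of the 4 members was higher at 30 min than in the dark, vos-1, where 5.65% of all genes tested were higher, and 0 members were lower, where 7.25% of all genes were. At 60 min the count was again 1 member higher, vos-1 (6.27% of all genes), and 0 lower (5% of all genes). At 120 min, 0 members were more than 2-fold higher (4.62% of all genes) or lower (2.23% of all genes). With the weaker rule of an interval that excludes 1, the members divided into 1 above and 3 below the dark library at 30 min, where 21.6% of all genes were above and 43.5% below. The division was the same at 60 min (25.4% of all genes above and 34.9% below), and at 120 min 2 members were above (29% of all genes) and 0 below (22.3%).

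The small dips of ve-1 and vel-2 have to be read against the shift of all genes. The median log2 ratio over all genes was -0.16 after 30 min, -0.07 after 60 min and 0.04 after 120 min. Relative to it, the log2 ratio at 30 min was -0.12 for ve-1, -0.33 for vel-2, 2.20 for vos-1 and -0.44 for lae-1. At 60 min these differences were -0.10, -0.08, 1.27 and -0.76 in the same order of genes, and at 120 min they were 0.16, 0.10, 0.52 and 0.32. At 60 min, the values of ve-1 and vel-2 therefore lay close to that of the median gene, and with median-of-ratios factors their intervals held 1 there.

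**Figure D2:**
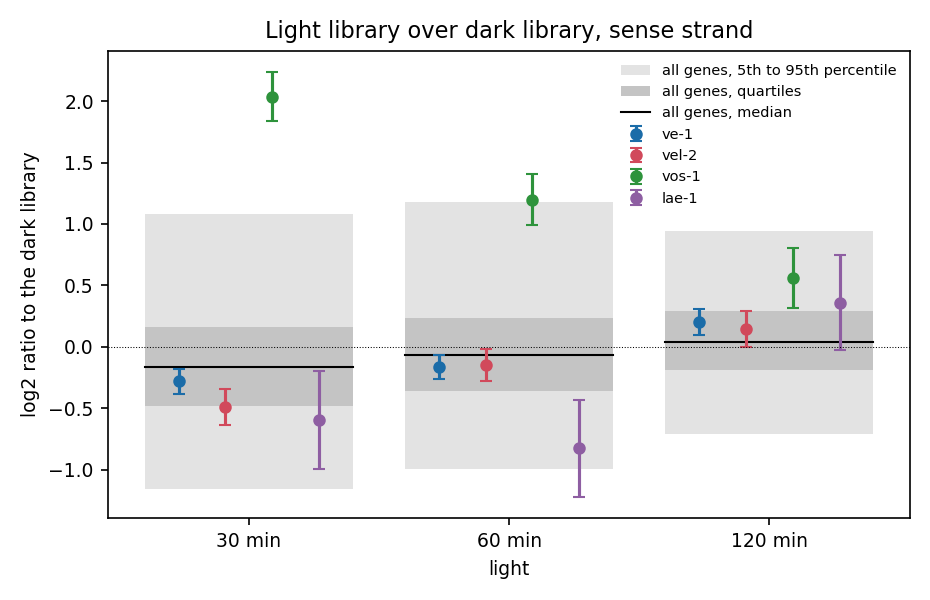
log2 ratio of each light library to the dark library for the 4 velvet genes (points, 95% counting intervals), over the median, quartiles and 5th to 95th percentiles of all genes (line and grey bands). At 30 min vos-1 lies above the 95th percentile of all genes, at a log2 ratio of 2.04 against 1.08, while the other 3 members lie inside the 5th to 95th percentile band at each time.

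From 30 to 60 min, 2 of the 4 members, ve-1 and vel-2, had an interval above 1 (38.8% of all genes), and 1, vos-1, had one below 1 (21.1% of all genes). The ratios were 1.09 for ve-1 (1.02 to 1.15) and 1.27 for vel-2 (1.16 to 1.38), while that of lae-1, 0.853, had an interval that held 1 (0.653 to 1.11). The ve-1 interval held 1 with 3 of the 4 other scalings, with a ratio of 1.02 with the sum of sense counts (0.961 to 1.08), 1.03 with median-of-ratios and 1.02 with TMM factors. From 60 to 120 min, 3 members were above 1 (37.9% of all genes) and vos-1 was below (22.1%), with ratios of 1.29 for ve-1 (1.21 to 1.37) and 1.23 for vel-2 (1.12 to 1.34). Only lae-1 passed the 2-fold rule in this step, where 3.8% of all genes were more than 2-fold higher and 2.99% lower, and no member passed it from 30 to 60 min (2.92% higher and 1.68% lower).

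Levels of different genes were compared per length, as sense RPM per kb of RefSeq gene, introns included (RPKM). In the dark, the order was ve-1 (32.2), vel-2 (19.2), vos-1 (7.00) and lae-1 (2.74), and the counting intervals of neighbors in this order did not overlap. At 30 min, vos-1 (28.7) had the highest value, followed by ve-1 (26.5), and both were above vel-2 (13.7) and lae-1 (1.81). The separate intervals of vos-1 (27.3 to 30.1) and ve-1 (25.3 to 27.7) overlapped, which does not show that their levels were equal. At 60 min, vel-2 (17.3) and vos-1 (16.1) had overlapping intervals of 16.4 to 18.2 and 15.1 to 17.0, below ve-1 (28.8) and above lae-1 (1.54). At 120 min the order was that of the dark library, with 37.1 for ve-1, 21.2 for vel-2, 10.3 for vos-1 and 3.503 for lae-1. Of the 9215 genes with a length, 46.8% had a lower level than vos-1 in the dark and 78.5% at 30 min. For ve-1 this share was between 76.9% and 81.6% over the 4 times, for vel-2 between 63.1% and 70.7%, and for lae-1 between 25.4% and 32.8%.

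Ratios of 2 members within a library do not depend on the scaling between libraries. The reads of vel-2 outnumbered those of vos-1 3.07-fold in the dark (2.65 to 3.57), whereas at 30 min the ratio was 0.532 (0.490 to 0.579), with vos-1 the more abundant. At 60 min the ratio was 1.20 (1.11 to 1.31) and at 120 min 2.31 (2.03 to 2.63). The change of this ratio to the dark library was 0.174 after 30 min (0.146 to 0.206), 0.393 after 60 min (0.331 to 0.465) and 0.752 after 120 min (0.617 to 0.917).

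By contrast, ve-1 and vel-2 kept nearly the same proportion. Their read ratio was 1.92 in the dark, 2.21 after 30 min, 1.90 after 60 min and 1.99 after 120 min, and only the change from the dark to 30 min, 1.16, had an interval that excluded 1 among the comparisons with the dark (1.02 to 1.31). The reads of ve-1 exceeded those of lae-1 13.6-fold in the dark, 16.9-fold after 30 min, 21.5-fold after 60 min and 12.2-fold after 120 min. This proportion was largest at 60 min, with a change to the dark library of 1.58 (1.19 to 2.098).

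Reads on the opposite strand were few for all 4 genes. Antisense counts on ve-1 were 4 in the dark, 16 after 30 min, 21 after 60 min and 9 after 120 min, or 0.285%, 0.832%, 0.829% and 0.565% of the reads on the gene. On vel-2 they were 3, 6, 14 and 5 reads at the same times, or 0.409%, 0.691%, 1.05% and 0.624%. On vos-1 there were 0, 1, 2 and 1 reads, with a share of 0.0617% at 30 min, where its sense reads were most abundant. The count of 0 in the dark allows a share of up to 1.26% by a limit of 3 reads, or 1.54% by the exact interval. On lae-1 there were 0, 5, 3 and 2 antisense reads, with a share of 4.24% at 30 min (1.39% to 9.61%). The 0 of lae-1 in the dark allows up to 2.91% by the limit of 3 reads, or 3.52% by the exact interval.

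As a measure of sense reads assigned to the wrong strand, the median antisense share of genes with at least 10000 sense reads was 0.0495% in the dark, 0.120% after 30 min, 0.180% after 60 min and 0.100% after 120 min. In the dark, 2 of the 4 members had an interval above this strand ratio, ve-1 and vel-2, where 40.9% of all genes with at least 100 sense reads did. At 30, 60 and 120 min it was 3 members each, with lae-1 added to them (44.5%, 44% and 44.6% of all genes). Taken against the median of genes with at least 1000 sense reads, the count was 0 in the dark, 2 after 30 min, 3 after 60 min and 1 after 120 min. The share of all genes above this second median was not computed, so these counts cannot be called high or low. By the 2-fold rule, antisense counts were higher than in the dark for 1 member after 30 min, ve-1 (21.9% of all genes tested on that strand), for 2 members after 60 min, ve-1 and vel-2 (26.6%), and for 0 after 120 min (21.6%). The intervals of all these antisense ratios held 1, so a change of antisense RNA at the velvet genes was not detectable at this depth.

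The annotation places vos-1 in an overlap with its neighbor NCU05965, and reads in such an overlap can be split or dropped by the counting, so the counts of vos-1 are uncertain to that extent. The course of the neighbor differed from that of vos-1. NCU05965 had 441 sense reads in the dark, 422 after 30 min, 975 after 60 min and 1125 after 120 min, with ratios to the dark library of 0.577 after 30 min (0.503 to 0.661) and 2.59 after 120 min (2.32 to 2.90). The genes next to the other members do not overlap them. Beside ve-1, NCU01729 had a ratio of 0.740 at 30 min (0.654 to 0.838) and NCU01734 held at most 8 sense reads. Beside vel-2, NCU02776 had a ratio of 1.08 (0.865 to 1.36) and NCU02774 held at most 6 sense reads. Beside lae-1, NCU00648 had a ratio of 0.639 (0.426 to 0.960) and NCU00645 had 0 sense reads in each library.

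In constant light, the question was how the members stand when a White Collar gene is deleted. These 3 libraries give 1 count per exon line without a strand, so sense and antisense reads cannot be told apart in them, and they were not compared with the light times. The largest difference was that of ve-1. It had 2031 reads in the library labelled Δwc1 and 1128 in the library labelled Δwc2, against 1166 in wt, or 90.5, 50.8 and 44.5 RPM. The library labelled Δwc1 thus stood above the other 2, which were close to each other. The ratio to wt was 2.03 in the library labelled Δwc1 (1.89 to 2.19) and 1.14 in the library labelled Δwc2 (1.05 to 1.24). Between the libraries labelled Δwc1 and Δwc2 it was 1.78 (1.66 to 1.92). Both genes beside ve-1 also had an interval above 1 in the library labelled Δwc1 over wt, as had 48.9% of all genes tested. NCU01729 had 662 against 537 reads and a ratio of 1.44 (1.28 to 1.62). NCU01734 had only 20 against 5 reads and a ratio of 4.67 (1.70 to 15.9). In the library labelled Δwc2 their ratios to wt were 0.936 (0.822 to 1.06) and 0.708 (0.110 to 3.64), with intervals that held 1.

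The other members differed less. The counts of vos-1 were 292 in the library labelled Δwc1 and 216 in the library labelled Δwc2, against 247 in wt, or 13.01, 9.72 and 9.42 RPM. Its ratio to wt was 1.38 in the library labelled Δwc1 (1.16 to 1.64) and 1.03 in the library labelled Δwc2 (0.856 to 1.24), and 1.34 between the libraries labelled Δwc1 and Δwc2 (1.12 to 1.60). For vos-1, the interval over wt of the library labelled Δwc1 held 1 with median-of-ratios or TMM factors. For vel-2, 689 reads in the library labelled Δwc1 and 619 in the library labelled Δwc2 stood against 725 in wt, or 30.7, 27.9 and 27.7 RPM. These 3 levels lay close together, with ratios to wt of 1.11 (labelled Δwc1, 0.998 to 1.23) and 1.01 (labelled Δwc2, 0.903 to 1.12). The counts of lae-1 were 45 in each of the libraries labelled Δwc1 and Δwc2, against 53 in wt, or 2.00, 2.03 and 2.02 RPM. Its ratios to wt were 0.991 (labelled Δwc1) and 1.00 (labelled Δwc2), but with so few reads the intervals reached from 0.651 to 1.504 and from 0.658 to 1.52.

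**Figure D3:**
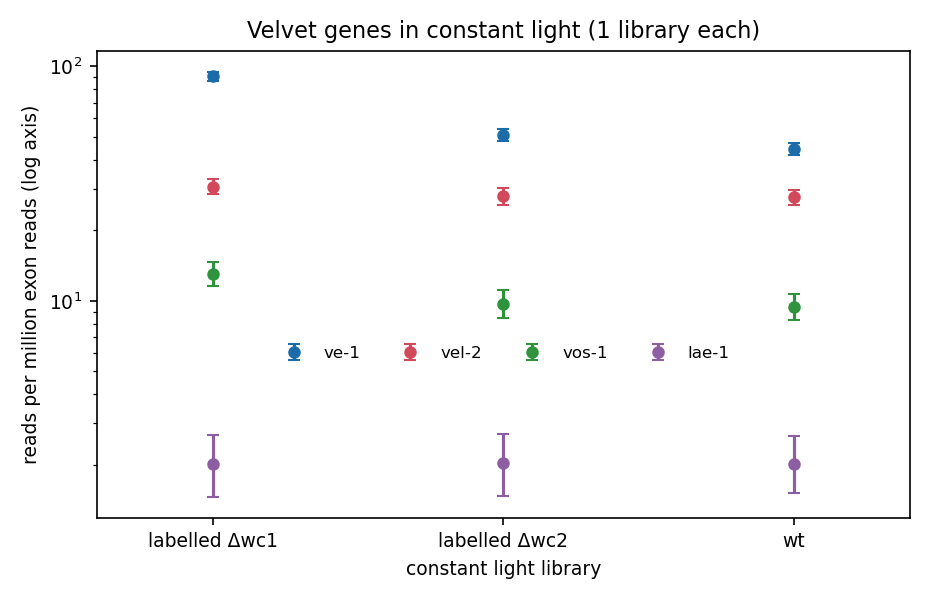
RPM of summed exon reads (log axis) of the 4 velvet genes in the 3 constant light libraries, 1 library each, with 95% counting intervals as bars. For ve-1 the library labelled Δwc1 has 90.5 RPM, against 44.5 in wt, while lae-1 stays at 2.00 to 2.03 in all 3.

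By the 2-fold rule, 1 of the 4 members, ve-1, was higher in the library labelled Δwc1 than in wt, where 15.6% of all genes tested were higher, and 0 were lower (7.62% of all genes). That call lay at the threshold and was lost under each other scaling tried, with ratios of 1.72 to 1.86. In the library labelled Δwc2 it was 0 members higher (10.4% of all genes) and 0 lower (8.3%). Intervals above 1 were found for 2 members in the library labelled Δwc1, ve-1 and vos-1 (48.9% of all genes), and for 1 in the library labelled Δwc2, ve-1 (45.8%). No interval lay below 1 in either comparison (23.3% and 24.7% of all genes). Between the libraries labelled Δwc1 and Δwc2, the same rule gave ve-1 and vos-1, 2 of 4 members above 1 (33% of all genes) and 0 below (27%), with 0 past 2-fold (6.57% of all genes higher and 2.02% lower). Both comparisons with wt share the 1 wt library.

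The median log2 ratio over all genes was 0.23 in the library labelled Δwc1 and 0.17 in the library labelled Δwc2. Most genes thus lay above wt when scaled by summed exon reads. With median-of-ratios factors the medians were -0.005 and -0.001, so this majority depends on the scaling. Relative to the medians of 0.23 and 0.17, ve-1 stood at 0.79 in the library labelled Δwc1 and at 0.02 in the library labelled Δwc2. The corresponding values were -0.08 and -0.16 for vel-2, 0.23 and -0.13 for vos-1, and -0.24 and -0.17 for lae-1. In the library labelled Δwc2, ve-1 was thus at the level of the median gene, and its interval held 1 under each alternative scaling. In the same library, the vel-2 ratio was 0.893 (0.801 to 0.996) with median-of-ratios factors, an interval below 1.

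Within each constant light library, which needs no scaling, ve-1 had 2.95 times the reads of vel-2 in the library labelled Δwc1 (2.70 to 3.22) and 1.82 times in the library labelled Δwc2, against 1.61 times in wt (1.46 to 1.77). The change of this ratio was 1.83 in the library labelled Δwc1 over wt (1.61 to 2.08) and 1.13 in the library labelled Δwc2 over wt (0.988 to 1.30), and 1.62 between the libraries labelled Δwc1 and Δwc2 (1.42 to 1.85). Against lae-1, ve-1 had 45.1 times the reads in the library labelled Δwc1 and 25.1 times in the library labelled Δwc2, against 22 times in wt. The change over wt was 2.05 in the library labelled Δwc1 (1.34 to 3.14). The proportion of vel-2 to vos-1 was 2.36 in the library labelled Δwc1 and 2.87 in the library labelled Δwc2, against 2.94 in wt.

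**Figure D4:**
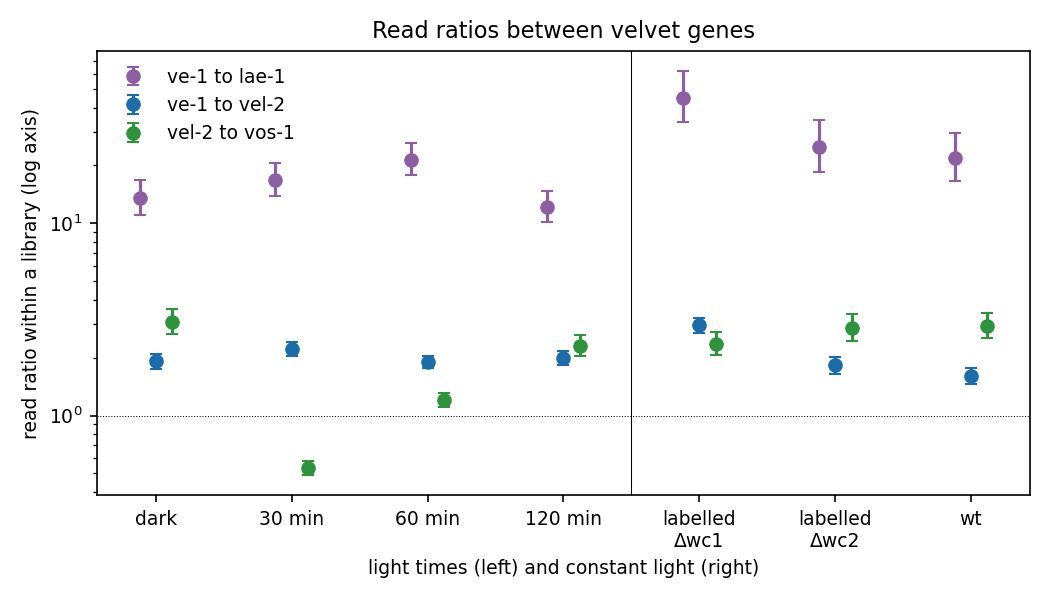
Read ratio of member pairs inside each library (log axis) with 95% counting intervals, for the 4 light times on the left and the 3 constant light libraries on the right. Among the light times, the ratio of vel-2 to vos-1 is below 1 only at 30 min (0.532). Among the constant light libraries, the ratio of ve-1 to vel-2 is highest in the library labelled Δwc1 (2.95).

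Per length, the order in constant light was ve-1, vel-2, vos-1 and lae-1 in each library. In RPKM, ve-1 had 25.6 in the library labelled Δwc1 and 14.4 in the library labelled Δwc2, against 12.6 in wt, and vel-2 had 9.92, 9.003 and 8.94. Further down, vos-1 had 4.70, 3.52 and 3.41, and lae-1 had 0.655, 0.661 and 0.660 in the same order of libraries. The intervals of neighboring genes in this order did not overlap in any of the 3 libraries. Of all genes with a length, 77.7% lay below ve-1 in the library labelled Δwc1 and 68.0% in the library labelled Δwc2, against 68.4% in wt.

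The counts per exon line show where on a gene a difference lay. Lines are numbered in the order of the files. On ve-1, line 3 carried most reads, 1855 in the library labelled Δwc1 and 1007 in the library labelled Δwc2, against 1029 in wt, and its ratio of the library labelled Δwc1 to wt was 2.11 (1.95 to 2.27). Line 1 had 48, 36 and 34 reads and line 2 had 128, 85 and 103 reads in the same order of libraries. Scaled by summed exon reads, ve-1 was higher in the library labelled Δwc1 than in wt on all 3 lines. The ratios were 1.65 on line 1 (1.04 to 2.64) and 1.45 on line 2 (1.11 to 1.90). Other scalings lowered the ratio of the whole gene to as little as 1.72. They were not run on single lines, so whether the intervals of lines 1 and 2 stay above 1 was not tested. Set against the other lines of ve-1, line 3 had an odds ratio to wt of 1.40 in the library labelled Δwc1 (1.10 to 1.79). That of line 2 was 0.694 in the same library (0.525 to 0.919).

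On vel-2, lines 1 and 4 differed in direction in the library labelled Δwc1, when scaled by summed exon reads. Line 1 had 380 reads in the library labelled Δwc1 and 323 in the library labelled Δwc2, against 349 in wt. Its ratio to wt was 1.27 in the library labelled Δwc1 (1.10 to 1.47). In the library labelled Δwc2 it was 1.09, with an interval that held 1 (0.936 to 1.27). Line 4 had 130 reads in the library labelled Δwc1 and 132 in the library labelled Δwc2, against 201 in wt, with ratios of 0.755 (0.601 to 0.946) and 0.775 (0.617 to 0.970). Line 4 therefore held 18.9% of the vel-2 reads in the library labelled Δwc1 and 21.3% in the library labelled Δwc2, against 27.7% in wt. Set against the other lines of the gene, the odds ratio of line 4 to wt was 0.606 in the library labelled Δwc1 (0.468 to 0.785) and 0.707 in the library labelled Δwc2 (0.544 to 0.916). The nearly equal sums of vel-2 in the 3 libraries thus hid an unequal spread over its exon lines. On vos-1, line 1 held 283, 206 and 235 reads and line 2 held 9, 10 and 12 reads in the same order of libraries, so the vos-1 values rest on 1 line. On lae-1, line 7 held most of the few reads (24, 23 and 30). Line 1 of lae-1 had 0 reads in both libraries labelled as deletions, against 6 in wt, with an upper limit of the odds ratio of 0.951 in each. Over all lines of the 4 genes, 7 of 32 such odds ratios had an interval that excluded 1, 5 on ve-1 and vel-2 and 2 on lae-1. These odds ratios are not independent, since each line is set against the other lines of its gene. Those on lae-1 also share the same 6 wt reads. The share of such intervals over the exon lines of all genes was not computed, so this count cannot be called high or low.

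**Figure D5:**
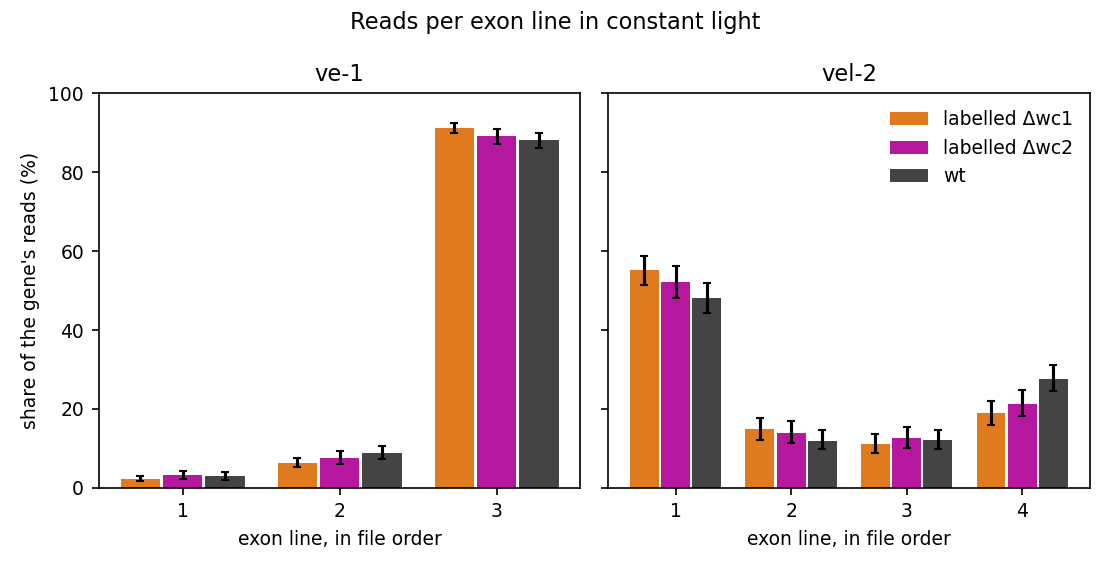
Share of the reads of ve-1 (left) and vel-2 (right) on each exon line in percent, for the libraries labelled Δwc1 and Δwc2 and for wt, with exact 95% intervals as bars. Line 4 of vel-2 holds 18.9% and 21.3% in the libraries labelled Δwc1 and Δwc2, against 27.7% in wt, and line 3 of ve-1 holds 91.3% and 89.3%, against 88.3%.

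Genes that in Aspergillus nidulans or by family are tied to velvet function were set beside the members. These are wc-1 and wc-2, the phytochromes phy-1 and phy-2, the MAP kinase gene mak-2, and NCU01249, which the annotation lists without a symbol. At 30 min, 1 of these 6 genes was more than 2-fold higher than in the dark, wc-1 with 791 against 201 reads and a ratio of 2.37 (2.03 to 2.78), and 0 were lower (5.65% and 7.25% of all genes). The smallest ratio was that of mak-2, 0.515 (0.490 to 0.541), and the median log2 ratio of the 6 genes was -0.19, against -0.16 over all genes. In this list, NCU01249 lay above or below 1 depending on the scaling at 30 min. In constant light, wc-1 itself was the 1 gene more than 2-fold higher in the library labelled Δwc1 (15.6% of all genes), and wc-2 the 1 gene more than 2-fold lower in the library labelled Δwc2 (8.3% of all genes), which are the genes the strains target.

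The samples are labelled mycelia, and the levels of conidiation genes, tied to the asexual spores (conidia), were set beside those of the members. A rise of these genes in light can come from the mycelium itself, so they do not measure conidia here. At 30 min, 7 of the 9 conidiation genes tested were more than 2-fold higher than in the dark and 0 were lower (5.65% and 7.25% of all genes), with a median log2 ratio of 2.26. The largest ratio was that of con-6, 506 (406 to 639), and the smallest that of fl, 0.985 (0.922 to 1.05), the gene of a transcription factor that starts conidiation. The summed level of the 10 genes was 3015 RPM in the dark, 12563 after 30 min, 22169 after 60 min and 12673 after 120 min. At 60 min this sum was mostly con-6 and con-10, with 184961 and 237534 reads, and in the dark mostly eas, with 27487 reads. The list was mixed in its course. From 30 to 60 min, 6 of the 9 tested genes had an interval below 1 and 3 above (21.1% and 38.8% of all genes), with a median log2 ratio of -0.34. Like vos-1, acon-3 (0.381), rca-1 (0.793), csp-1 (0.708) and csp-2 (0.433) were lower at 60 min than at 30 min. So were fl (0.755) and eas (0.879), while con-6 (2.30), con-8 (1.20) and con-10 (2.37) were higher. In constant light, 5 of the 10 genes tested in the library labelled Δwc1 and 5 of the 9 in the library labelled Δwc2 were more than 2-fold lower than in wt (7.62% and 8.3% of all genes). More than 2-fold higher were 1 gene in the library labelled Δwc1, acon-3 with 5.11 (2.33 to 12.7), and 0 in the library labelled Δwc2 (15.6% and 10.4% of all genes). The summed level was 280 RPM in the library labelled Δwc1 and 344 in the library labelled Δwc2, against 7933 in wt. In wt this sum was nearly all eas and con-8, with 159799 and 42642 reads, so its fall does not describe the list as a whole. The marker con-13 was at 0 in the dark and at 120 min. The part of conidial RNA in the vos-1 and ve-1 values was not tested.

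Of 5 carotenoid genes, which make the orange pigment that light induces, 4 were more than 2-fold higher at 30 min and 0 lower (5.65% and 7.25% of all genes), with ratios between 388 for al-1 (345 to 438) and 0.586 for ylo-1 (0.555 to 0.619), with a median log2 ratio of 3.96. In constant light, 2 of the 5 were more than 2-fold lower than wt in each of the libraries labelled Δwc1 and Δwc2, al-1 and al-2 (7.62% and 8.3% of all genes). The vos-1 ratio of 4.10 at 30 min was smaller than that of each of these 4 carotenoid genes. Among genes of sexual development, which velvet proteins also govern in Aspergillus nidulans, 1 of the 5 tested was more than 2-fold higher at 30 min, sub-1 with 5.88 (5.33 to 6.50), and 0 were lower (5.65% and 7.25% of all genes). The smallest of the 5 ratios was that of asm-1, 0.540 (0.512 to 0.569), and the median log2 ratio was -0.48. In constant light, fsd-1 and sub-1 were the 2 of 6 tested genes more than 2-fold higher than wt in the library labelled Δwc1, with 3.59 (3.14 to 4.13) and 2.90 (2.36 to 3.59), and 0 were lower (15.6% and 7.62% of all genes). In the library labelled Δwc2 the same pair was higher, with 2.80 and 2.45, and pre-1 and pre-2, the pheromone receptor genes, were lower, with 0.421 and 0.366 (10.4% of all genes higher and 8.3% lower). The pre-2 value rests on 9 against 29 reads. In the library labelled Δwc1, pre-1 was also below wt, with 0.528 (0.407 to 0.681), short of 2-fold. There pre-2 had 0.644, with an interval that held 1 (0.327 to 1.23). The ve-1 ratio of 2.03 in the library labelled Δwc1 was below those of fsd-1 and sub-1. As a check, 0 of 3 housekeeping genes (act, bml and tef-1) passed the 2-fold rule at 30 min or in either library labelled as a deletion, with a median log2 ratio of -0.28 at 30 min.

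The genes whose pattern was most like that of a member were found by the distance over 5 log2 ratios (30, 60 and 120 min over dark and both libraries labelled as deletions over wt), among 5822 genes with at least 100 reads in each of the 7 libraries. Nearest to vos-1 was mus-40 (NCU07498) at a distance of 0.29, followed by os-4 (NCU03071) at 0.43 and NCU01188 at 0.46, while the median gene lay at 2.77. With log2 ratios of 2.04 after 30 min, 1.13 after 60 min and 0.51 after 120 min, mus-40 came close to the 2.04, 1.20 and 0.56 of vos-1. Over wt, mus-40 had 0.46 in the library labelled Δwc1, against 0.47 for vos-1. The 2 genes differed most in the library labelled Δwc2, with 0.32 for mus-40 against 0.05 for vos-1. For ve-1 the nearest genes were NCU11185 at 0.15, NCU00268 at 0.18 and NCU04718 at 0.24 (median gene 1.20). For vel-2 they were NCU00434 at 0.13, NCU02963 at 0.14 and NCU09312 at 0.15 (median gene 1.00). The pattern of lae-1, itself under 100 reads in constant light, was nearest to those of NCU06704 at 0.33 and of NCU09806 and NCU08199 at 0.35 each (median gene 1.34). The distance to the median gene was therefore largest for vos-1, and no gene came as close to vos-1 or to lae-1 as the nearest genes came to ve-1 and vel-2. Counting error enters these distances, and it is largest for lae-1, with 45 to 53 reads in constant light. The part of it in the lae-1 distances was not tested.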

How the data were processed

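RNA-seq of 4 strand-specific and 3 constant light libraries was analysed, 1 library per condition. The authors aligned the strand-specific reads to NC10 (Bowtie 2.1.0, up to 3 mismatches), counted them by gene and strand with HTSeq and deposited the counts without normalization. For constant light, the authors deposited raw counts per exon, which were summed per gene. The submitters' processing notes list Bowtie2 2.1.0, TopHat2 2.0.13 and HTSeq. How the constant light reads were mapped and counted is not given in the sources used here. Reads not assigned to a gene (12.1% to 21.3% of the sense files) were left out.

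Sense and antisense counts were scaled by the total reads that the study states, constant light counts by summed exon reads. Ratios have exact Clopper-Pearson 95% intervals, with depth setting their width. A gene was called past 2-fold with at least 10 reads in the higher library. A gene counted as tested had at least 10 reads in 1 of the 2 libraries. A count of 0 was given the limit of 3 reads. Gene lengths and neighbors came from RefSeq NC12 (9215 of 9733 genes), and no coordinates are given since the builds differ. TMM factors were from edgeR 4.0.16 in R 4.3.3, and all other steps used Python 3.11.15, numpy 2.4.6, pandas 2.3.3 and scipy 1.17.1. The ratio and interval steps were tested on simulated data. Alternatives concerned the scaling, the minimum count, the threshold, the pseudocount, the exon lines and the strand ratio.

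Named genes are the 4 members, the 3 genes nearest to each in pattern, their neighbors, the targeted genes, vvd and frq, and, per gene list, those with the largest and smallest ratio at 30 min. Outside this rule, further list genes (past 2-fold in constant light, or conidiation genes set beside vos-1) and the 2 most read genes were named after their values were seen. The members and lists were chosen with earlier results of these data known, and 0 list entries were dropped.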

Additional observations from a re-analysis of the deposited data

Results flagged for a closer look

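The effect over wt on 2 velvet genes differed between the libraries labelled Δwc1 and Δwc2. For ve-1, the ratio to wt was 2.03 in the library labelled Δwc1 and 1.14 in the library labelled Δwc2, a quotient of 1.78 (1.66 to 1.92). For vos-1, the ratios were 1.38 and 1.03, a quotient of 1.34 (1.12 to 1.60). The intervals cover counting error between 2 libraries, and with 1 library each a difference between the strains was not tested.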

How the results depend on the processing

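Of 140 ratios of single members under alternatives, 120 kept their call and 20 changed it. The vos-1 ratio at 30 min over dark ranged from 4.02 to 4.59 and that of lae-1 from 60 to 120 min from 2.103 to 2.45. Without its most read exon line, vos-1 turned below 1 in the library labelled Δwc1 over wt (0.876) and over the library labelled Δwc2 (0.891), on 9 to 12 reads per library. With the most read exon line of each member left out, 1 member had an interval above 1 in the library labelled Δwc1 over wt, 1 in the library labelled Δwc1 over that labelled Δwc2, and 0 in the library labelled Δwc2 over wt. With median-of-ratios or TMM factors, 1 member in place of 3 had an interval below 1 at 60 min over dark, 1 in place of 2 above 1 from 30 to 60 min (also with the sum of sense counts), 1 in place of 2 above 1 in the library labelled Δwc1 over wt, and 1 (vel-2) in place of 0 below 1 in the library labelled Δwc2 over wt. The 1 member past 2-fold in the library labelled Δwc1 over wt, and the 1 with an interval above 1 in the library labelled Δwc2 over wt, became 0 under each scaling alternative and without the most read exon line. One of these, without NCU09345 and NCU06110, was chosen after seeing the data. At a 1.5-fold threshold, 1 member in place of 0 was lower at 30 min over dark, at 60 min over dark, from 30 to 60 min and from 60 to 120 min, and 1 was higher in the library labelled Δwc1 over that labelled Δwc2. With the strand ratio of genes with at least 1000 sense reads, 0 members in place of 2 lay above it in the dark and 1 in place of 3 at 120 min. The other minimum counts and the pseudocount changed no count of members by more than 1.5 times.

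Scaling moved the median log2 ratio of all genes by up to 0.16 at 30 min (TMM), -0.12 at 60 min (sum of sense counts), -0.24 in the library labelled Δwc1 and -0.17 in the library labelled Δwc2 (median-of-ratios). The cause of these shifts was not tested. No paired analysis was possible because each condition has 1 library. Levels with coding length in place of gene length were not run. The 3 nearest genes stayed the same with at least 30 reads, except that 2 of 3 remained for vos-1. With 45 to 130 reads, lae-1 sets the least precise ratios.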
